A study of Mus musculus with 2 samples.

Results

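The 7 genes Ung, Apex1, Apex2, Msh6, Pms2, Exo1 and Polh, which encode enzymes and binding proteins that process deaminated DNA, were followed across the cell states of germinal center B cells. They were taken by symbol from the 30905 genes listed for each library, and all 7 were found. Germinal center B cells are antigen-activated B cells that divide rapidly and mutate their antibody genes. They had been sorted from spleens of C57BL/6J mice, an inbred strain, aged 8 weeks and immunized with SRBC (sheep red blood cells, a particulate antigen). The 2 libraries, library 1 and library 2, belong to the same group, with no treatment or genotype between them, so the comparisons here are between classes of cells inside the libraries. Whether separate animals or a pool gave rise to them is not stated in the labels. The p-values therefore speak only for these 2 libraries, whose spread may be technical. RNA was counted as unique molecular identifiers (UMIs, tags that mark captured RNA molecules) read at the 3′ ends of transcripts.

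Antibody mutation starts when AID, a cytidine deaminase, turns cytosine into uracil in transcribed antibody genes. UNG, a uracil-DNA glycosylase, cuts the uracil base out and leaves an abasic site, which the endonucleases APE1 (Apex1) and APE2 (Apex2) can nick. Alternatively the mismatch pair is bound by a dimer that holds MSH6, the endonuclease subunit PMS2 belongs to the complex recruited next, and the exonuclease EXO1 removes a stretch of the strand. DNA polymerase eta (Polh), a translesion polymerase that copies past ultraviolet lesions, fills such gaps with frequent errors opposite T. In other cells most of these proteins repair replication errors or damaged bases faithfully. The dark zone of a germinal center is known as the place of division and mutation, and the light zone as the place of selection by antigen and T cells.

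In GENCODE release M21 on mm10 the genes lay on 5 chromosomes. Ung (ENSMUSG00000029591) was on chromosome 5 at 114130386 to 114139323, and Pms2 (ENSMUSG00000079109) lay on the same chromosome at 143909964 to 143933968, both on the plus strand. Msh6 (ENSMUSG00000005370) and Polh (ENSMUSG00000023953) shared chromosome 17, at 87975062 to 87990892 on the plus strand and at 46171355 to 46202645 on the minus strand. Apex1 (ENSMUSG00000035960) was at 50924968 to 50927139 on the plus strand of chromosome 14. Exo1 (ENSMUSG00000039748) was at 175880581 to 175913489 on the plus strand of chromosome 1. Apex2 (ENSMUSG00000025269) was at 150519519 to 150589868 on the minus strand of chromosome X.

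Promoter windows are shown for 4 genes whose levels, given further on, followed different courses: Ung and Msh6, both highest in G1/S-high cells, Polh, highest in G2/M-high cells, and Apex1, lower in dark than in light zone gate cells. Each window runs from 250 bases before to 50 bases after the start of the gene in RefSeq (GRCm38.p6), where 5 of the 7 genes were matched. Capitals mark matches, on either strand, to the 5 sequences searched: TTTNGCGC and TTCCCGCC (forms bound by E2F factors), CCAAT (a box bound by the factor NF-Y), TTTGAA (the CHR element of mitotic genes) and CAGGTG (an E-box).
Ung, chr5:114130185-114130484, plus strand: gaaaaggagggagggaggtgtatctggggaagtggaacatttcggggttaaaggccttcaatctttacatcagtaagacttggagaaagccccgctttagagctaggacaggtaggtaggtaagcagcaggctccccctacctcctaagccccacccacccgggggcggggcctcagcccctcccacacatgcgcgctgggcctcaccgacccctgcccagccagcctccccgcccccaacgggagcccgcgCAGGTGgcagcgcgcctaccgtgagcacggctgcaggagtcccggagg
Msh6, chr17:87974800-87975099, plus strand: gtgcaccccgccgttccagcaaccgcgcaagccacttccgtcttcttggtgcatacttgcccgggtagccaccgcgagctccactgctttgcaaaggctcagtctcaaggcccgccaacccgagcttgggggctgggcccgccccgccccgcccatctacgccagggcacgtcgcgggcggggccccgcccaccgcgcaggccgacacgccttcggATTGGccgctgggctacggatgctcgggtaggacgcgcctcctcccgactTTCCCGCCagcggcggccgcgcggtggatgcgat
Apex1, chr14:50924699-50924998, plus strand: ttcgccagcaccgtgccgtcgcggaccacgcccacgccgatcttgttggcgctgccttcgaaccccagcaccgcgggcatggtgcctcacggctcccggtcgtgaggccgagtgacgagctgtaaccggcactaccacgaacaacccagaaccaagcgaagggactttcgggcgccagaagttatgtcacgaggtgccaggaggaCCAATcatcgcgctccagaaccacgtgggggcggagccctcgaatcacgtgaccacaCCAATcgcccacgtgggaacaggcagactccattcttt
Polh, chr17:46202592-46202891, minus strand: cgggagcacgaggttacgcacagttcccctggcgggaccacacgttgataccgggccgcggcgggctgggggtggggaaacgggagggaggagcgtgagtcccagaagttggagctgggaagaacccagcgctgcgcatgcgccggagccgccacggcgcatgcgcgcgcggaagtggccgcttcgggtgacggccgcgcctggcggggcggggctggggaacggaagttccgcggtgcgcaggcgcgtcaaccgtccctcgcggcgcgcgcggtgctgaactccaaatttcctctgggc

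The Ung window held CAGGTG at bases 253 to 258, a sequence present in 20.2% of the 32851 windows of the table. Msh6 had TTCCCGCC at bases 267 to 274, which 2.19% of windows hold, and a reverse CCAAT at bases 217 to 221. CCAAT stood at bases 206 to 210 and 263 to 267 in Apex1, and 37.4% of windows hold it. Pms2, not printed, had 3 CCAAT matches. None of the 5 sequences was found in the Polh window, and neither TTTNGCGC (1.38% of windows) nor TTTGAA (17.9%) was found in any of the 5 windows. The Ung and Msh6 windows, of genes that both peaked in G1/S-high cells, shared no match among these sequences. The matches do not overlap each other and describe letters only.

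Library 1 was deposited with 8765 barcodes and 75121538 UMIs, library 2 with 7868 barcodes and 61874342 UMIs. A minimum of 500 genes and of 1000 UMIs, with a mitochondrial share of no more than 20%, left 5142 and 3526 barcodes. Classes were called on counts thinned to 3400 UMIs per cell, which left 4677 and 3135 barcodes at median depths of 8900 and 9240 UMIs. Between the libraries 22 barcodes were shared before filtering and 6 among those used. All 12 germinal center B cell markers had a UMI in 51.8% to 99.9% of used barcodes. Of 6 T cell markers, which such cells should lack, none had a UMI in more than 1.85% of barcodes, the value of Trac in library 2, and the 6 summed to 1.37 and 2.66 CPM. Scrublet called no doublets, which for this number of barcodes means that it had not worked, so doublets remain. Of 7 markers of naive or memory B cells, 4 had a UMI in over 5% of barcodes and none was at 0. The same 5% was passed in each library by 3 of 5 plasma cell, 2 of 4 dendritic cell and 1 of 7 macrophage markers. Their highest shares were 88.2%, 68.1% and 6.95%. No neutrophil, erythroid or natural killer marker passed it. Whether the UMIs of these lists came from other cell types was not tested.

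Cell cycle state separated the genes most widely. Ung was highest in cells high in G1/S genes and lowest in cells high in G2/M genes, while Polh had its lowest level in cells low in all 3 cycle lists and its highest in G2/M-high cells. Exo1 was also lowest in those low cells and highest in the G1/S-high state. Msh6 and Apex1 were highest in G1/S-high cells, Pms2 moved little, and Apex2 did not pass the test against the low state in any cycling state. Cells were placed by the sums of 22 G1/S genes, 65 replication-dependent histone genes and 26 G2/M genes, none of them among the 7. Ung and Exo1 are, however, part of a widely used S phase list, so a rise of both in G1/S-high cells could be foreseen. A cell below the 50th percentile of its library in all 3 sums was called low, and any other took the list of its highest rank. The low, G1/S-high, histone-high and G2/M-high states held 914, 1571, 1076 and 1116 cells of library 1 and 506, 1071, 771 and 787 cells of library 2. Counts were summed per library and state, and levels are UMIs of a gene per 1000000 UMIs of the summed cells (CPM). In sums, more RNA per cell and more cells that hold the RNA cannot be told apart.

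Ung stood at 18.0 CPM in library 1 and 26.5 CPM in library 2 in low cells, at 94.5 and 124 CPM in G1/S-high cells, at 25.5 and 32.4 CPM in histone-high cells and at 9.10 and 13.6 CPM in G2/M-high cells. The G1/S-high sums lay far above all others in both libraries, and the G2/M-high sums lay below all others. Against low cells, Ung was 2.37 ± 0.09 higher on the log2 scale in G1/S-high cells (SE, 2 libraries; edgeR quasi-likelihood test, adjusted p = 1.27e-22). The log2 difference was 2.39 in library 1 and 2.22 in library 2. In G2/M-high cells Ung fell by 0.94 ± 0.13 against low cells (adjusted p = 2.10e-07, edgeR), and by 3.30 ± 0.07 against G1/S-high cells (adjusted p = 1.18e-28). Histone-high cells were already far below G1/S-high cells, where the fitted difference was -1.93 ± 0.06 (adjusted p = 4.34e-23, edgeR). That contrast was chosen after the levels by state had been seen. The histone-high state stood 0.44 ± 0.11 above low cells (adjusted p = 0.00154, edgeR), and these neighbours in the order of levels were close. The call was lost under 6 of the 11 alternatives that gave a test. The difference was 0.06 without barcodes that held UMIs of other cell types (adjusted p = 0.740) and -0.25 at a mitochondrial limit of 40% (adjusted p = 0.0710).

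Polh, the translesion polymerase gene, gave 5.48 and 4.93 CPM in low cells, 7.74 and 8.72 CPM in G1/S-high cells, 14.9 and 13.8 CPM in histone-high cells and 24.8 and 20.1 CPM in G2/M-high cells. The states stood in this order in both libraries, and no 2 states overlapped. Polh rose by 2.15 ± 0.17 (log2, SE) in G2/M-high cells against low cells (adjusted p = 9.02e-13, edgeR). It rose by 1.46 ± 0.11 in G2/M-high against G1/S-high cells (adjusted p = 7.28e-14, edgeR) and by 0.81 ± 0.12 in histone-high against G1/S-high cells (adjusted p = 1.36e-06, edgeR). The step between low and G1/S-high cells was smaller, at 0.69 ± 0.21 (adjusted p = 0.00474, edgeR), and was not called on sums of thinned counts, where it was 0.28 (adjusted p = 0.537). The low sums rested on 35 and 19 UMIs.

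Exo1, the exonuclease gene, had 3.29 and 4.15 CPM in low cells, from 21 and 16 UMIs. It stood at 36.0 and 37.8 CPM in G1/S-high cells, 29.2 and 29.9 CPM in histone-high cells and 13.6 and 16.7 CPM in G2/M-high cells. All 3 cycling states were above the low state in both libraries. The rise over low cells was 3.39 ± 0.16 (log2, SE) in G1/S-high cells (adjusted p = 4.62e-19, edgeR), the largest among the 7 genes in that contrast, 3.06 ± 0.18 in histone-high cells and 2.07 ± 0.20 in G2/M-high cells. Unlike Ung, Exo1 was only 0.33 ± 0.08 lower in histone-high than in G1/S-high cells (adjusted p = 0.000388, edgeR).

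Msh6, of the mismatch-binding dimer, stood at 38.7 and 42.8 CPM in low cells, 76.9 and 82.5 CPM in G1/S-high cells, 53.0 and 54.2 CPM in histone-high cells and 37.1 and 43.4 CPM in G2/M-high cells. It rose by 1.03 ± 0.08 (log2, SE) in G1/S-high cells over low cells (adjusted p = 5.73e-14, edgeR) and by 0.44 ± 0.09 in histone-high cells, a difference not called on thinned sums (adjusted p = 0.0750). The low and G2/M-high sums overlapped, with a difference of 0.01 ± 0.09 (adjusted p = 0.936, edgeR). Apex1, which encodes the main abasic site endonuclease, had 48.9 and 74.4 CPM in low cells, 79.5 and 118 CPM in G1/S-high cells, 49.2 and 61.9 CPM in histone-high cells and 46.8 and 60.4 CPM in G2/M-high cells. Library 2 was above library 1 in every state. Both G1/S-high sums were above every sum of the other states, and the other 3 states overlapped across libraries. The rise in G1/S-high over low cells was 0.74 ± 0.07 (adjusted p = 7.15e-11, edgeR), but 0.02 at a mitochondrial limit of 10% (adjusted p = 0.875). Apex1 did not pass the test in histone-high or G2/M-high against low cells, but was called lower there under some alternatives, among them thinned sums (-0.49, adjusted p = 0.0116, and -0.38, adjusted p = 0.0394, edgeR).

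Pms2, the endonuclease subunit gene, ranged over 30.2 and 27.0 CPM in low cells, 41.1 and 38.0 CPM in G1/S-high cells, 37.7 and 38.4 CPM in histone-high cells and 34.0 and 33.0 CPM in G2/M-high cells. The low sums were the lowest in both libraries and the G1/S-high and histone-high sums overlapped. Pms2 rose by 0.51 ± 0.09 (log2, SE) in G1/S-high over low cells (adjusted p = 9.97e-06, edgeR), and the 0.25 ± 0.10 of G2/M-high cells (adjusted p = 0.0318, edgeR) was lost under 6 of the 12 alternatives. Apex2, the gene of the lesser abasic site endonuclease, lay between 10.7 and 15.9 CPM in all 8 sums, and the states overlapped across libraries, with G2/M-high cells lowest within each library. Against G1/S-high cells it fell by 0.29 ± 0.11 in G2/M-high cells (adjusted p = 0.0224, edgeR). Its difference between G1/S-high and low cells was 0.00 ± 0.14 (adjusted p = 0.999, edgeR).

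**Figure D1:**
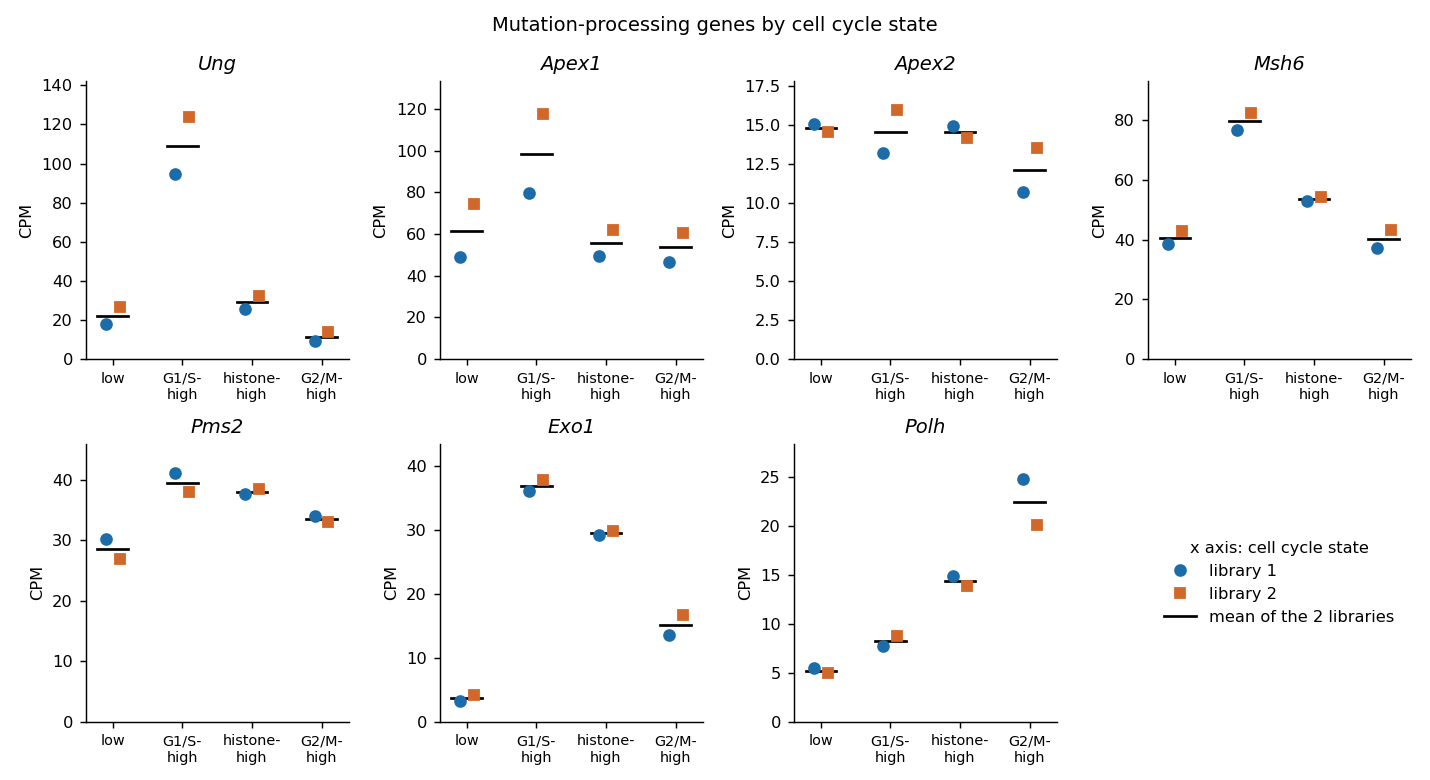
Level of each of the 7 genes (CPM, linear axis starting at 0) in the 4 cell cycle states, with a point for each library and a bar at the mean of the 2 libraries. Ung peaks in G1/S-high cells at 94.5 and 124 CPM, Polh climbs to 24.8 and 20.1 CPM in G2/M-high cells, and Apex2 stays between 10.7 and 15.9 CPM.

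Counted over the genes, 6 of 7 rose in G1/S-high over low cells, where 28.8% of the 11059 genes tested rose and 28.1% fell (56.9% called in all). In histone-high cells 5 of 7 rose, against 22.5% of all genes rising, with 43.8% called. In G2/M-high cells 3 of 7 rose and 1 fell, against 25.6% and 24.7% of all genes, with 50.3% called. Between G2/M-high and G1/S-high cells 1 rose and 6 fell, against 22.9% and 25.5% of all genes, with 48.4% called. Between histone-high and G1/S-high cells 1 rose and 4 fell, against 23.9% and 24.5% of all genes. The median log2 fold change of all genes lay between -0.034 and -0.0020 in these contrasts.

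The low state differed in more than its cycle genes. Its median depth was 5629 and 5828 UMIs, against 10448 and 11344 UMIs in G1/S-high cells. The 7 naive or memory B cell markers summed to 445 and 469 CPM in low cells and to 132 to 218 CPM in the other states. With barcodes holding UMIs of other cell types removed, the G1/S-high rise was 2.91 for Exo1, 2.05 for Ung, 0.92 for Msh6 and 0.97 for Polh (log2), all still called. A mitochondrial limit of 10% moved further values against low cells, all of them still called by edgeR: in G1/S-high cells Ung rose by 1.51 and Polh by 1.74, and in G2/M-high cells Exo1 rose by 1.27, Polh rose by 3.23 and Ung fell by 1.67 on the log2 scale. The part of depth in these results was not tested beyond the thinned sums. Within 5 percentile points of a boundary lay 21.0% and 18.1% of cells, and another draw of the thinning gave the same state to 81.0% and 79.9%.

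Ranking all cells by each list, without states, gave courses in finer steps, which matched those by state in part. Over 5 bins of the G1/S list sum, low to high, Ung had 2.81, 9.16, 25.4, 64.0 and 95.9 CPM in library 1 and 7.94, 11.7, 39.2, 75.4 and 133 CPM in library 2. Over 5 bins of the G2/M list sum, Ung had 35.8, 85.7, 75.9, 36.1 and 5.09 CPM in library 1 and 57.7, 103, 101, 45.8 and 6.79 CPM in library 2. Ung thus climbed at each step of the G1/S ranking and was lowest at the high end of the G2/M ranking. Polh over the same G2/M bins had 4.18, 5.15, 9.57, 14.3 and 28.4 CPM in library 1 and 5.82, 5.60, 8.97, 13.5 and 25.3 CPM in library 2. Its level in the highest bin was the highest of the 5 in each library. Exo1 was highest in the middle bin of that ranking, at 37.2 and 40.4 CPM. The bins differ in depth, with medians of 5904.5 and 6229 UMIs in the lowest G2/M bin and 10764 and 10650 UMIs in the highest.

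**Figure D2:**
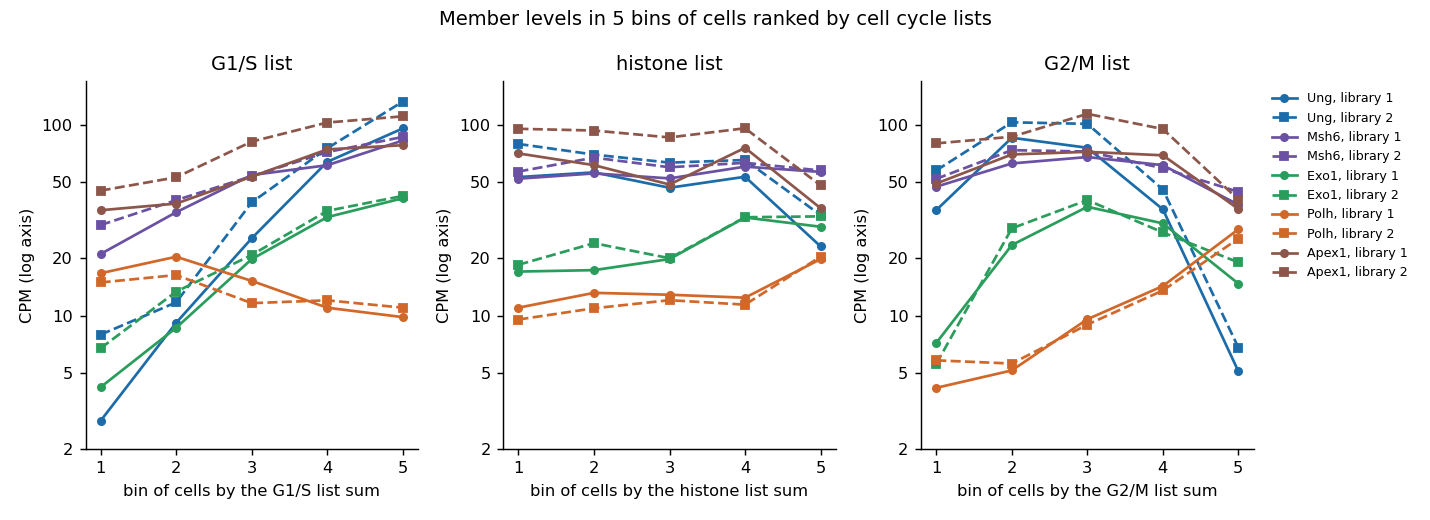
Levels (CPM, log axis) of Ung, Msh6, Exo1, Polh and Apex1 in 5 bins of cells ranked by the summed G1/S, histone and G2/M lists, with solid lines for library 1 and dashed lines for library 2. Ung drops to 5.09 and 6.79 CPM in the highest G2/M bin, where Polh reaches 28.4 and 25.3 CPM.

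Likeness to other genes was read over 32 sums (4 zone gates, 4 cycle states, 2 libraries) as Pearson's r of log2(CPM + 1), among 7329 genes with a mean of at least 10 CPM. The sums share libraries, depth and the genes that defined the states, so r is a description. Ung was most like Mcm2 and Mcm6 (r = 0.94 each), helicase subunits used in the G1/S list, and Zmynd19 (0.93). Msh6 was most like Mcm6 and Mcm2 (0.95 each) and Slbp (0.93), the histone mRNA binding protein of the same list. Polh was most like Cdc25b (0.95), a phosphatase gene of mitotic entry, and Cenpe (0.94) and Cenpf (0.93), kinetochore genes used in the G2/M list. Exo1 was most like Hpf1, Rrm2 and Gins3 (0.97 each), where Rrm2 encodes a ribonucleotide reductase subunit of the G1/S list and Gins3 a replication helicase subunit. Apex1 was most like Rcl1 (0.93), a ribosomal RNA processing gene, Ppp1r14b (0.93) and C1qbp (0.92). For Apex2 the highest r was 0.69, with Rbms1, Rnf121 and Stard10 at its head, and for Pms2 it was 0.78, with Dpysl2, Eri1 and Drosha. Among the 7 genes themselves, Ung and Msh6 gave r = 0.91, Msh6 and Exo1 0.71, Ung and Exo1 0.54, and Ung and Polh -0.44.

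Counts over the wider repair lists are given beside the shares of all genes, 28.8% rising and 28.1% falling in G1/S-high over low cells and 25.6% and 24.7% in G2/M-high over low cells. The lists were not tested against each other or against all genes. The mismatch repair list also holds genes of DNA replication: Rfc1 to Rfc5, Rpa1 to Rpa3, Pold1 to Pold4 and Lig1. Its counts were not split between these and the other genes. Some lists share Lig1, Rpa1 or Pcna, and Pcna was left out of the cycle contrasts because it was used to call states. In G1/S-high over low cells 18 of 21 mismatch repair genes tested rose and 1 fell, with a median log2 fold change of 1.04, beside -0.02 over all genes. The largest changes were those of Exo1, Rfc4 (2.48 ± 0.07), a clamp loader subunit, and Lig1 (2.28 ± 0.06), the replicative DNA ligase, each called by edgeR. In G2/M-high against G1/S-high cells 18 of the 21 fell and 1 rose, where 25.5% of all genes fell and 22.9% rose. Of 21 base excision genes 12 rose and 3 fell in G1/S-high over low cells (median 0.30), led by Neil3 (3.44 ± 0.19), a glycosylase, then Ung and Lig1. Of 18 translesion genes 7 rose and 2 fell (median 0.08), led by Polq (3.21 ± 0.30), the polymerase of end joining by short homologies, Rad18 (2.10 ± 0.15), the ligase that ubiquitinates PCNA, and Usp1 (1.48 ± 0.06), which removes that ubiquitin. In G2/M-high over low cells 9 of the 18 rose and 2 fell, with Polq (3.36 ± 0.30), Rad18 (2.20 ± 0.15) and Polh in front. Of 18 genes of AID and its cofactors 12 rose and 1 fell in G1/S-high over low cells (median 0.33), led by Rpa1 (1.04 ± 0.06), a subunit of the single-strand binding protein, Trim28 (0.98 ± 0.07), a corepressor, and Exosc3 (0.77 ± 0.06), an RNA exosome subunit.

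Between the zone gates the pair that differed most was Apex1, lower in dark zone gate cells, and Polh, higher there. Ung was slightly lower in the dark gate, and Msh6, Exo1, Apex2 and Pms2 did not pass the test. A cell entered the dark zone gate when a UMI of Cxcr4, the chemokine receptor of the dark zone, was present and Cd83 and Cd86 were absent. It entered the light zone gate when a UMI of Cd83 or Cd86, activation markers of the light zone, was present and Cxcr4 was absent. The dark gate held 784 and 475 cells and the light gate 1654 and 1185, with 558 and 374 cells in the double-positive gate and 1681 and 1101 in neither. Many calls rested on exactly 1 UMI, 593 and 364 of the dark and 835 and 591 of the light gate cells, and another draw gave the same gate to 61.5% and 60.6% of cells.

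Apex1 had 38.3 and 56.5 CPM in dark gate cells, against 68.5 and 94.9 CPM in light gate cells. The dark value was the lower in each library, and every light sum was above both dark sums. The difference was -0.79 ± 0.08 (log2, SE; adjusted p = 1.77e-11, edgeR), -0.84 in library 1 and -0.75 in library 2. Double-positive cells, at 46.5 and 41.7 CPM, sat with the dark gate: they were 0.85 ± 0.09 below light gate cells (adjusted p = 4.32e-10, edgeR), and the dark gate minus the double-positive gate gave 0.06 ± 0.11 (adjusted p = 0.808). None of the 7 genes passed the test between the dark and double-positive gates, where 11.4% of genes were called, and 3 did between the double-positive and light gates, where 20.7% were. Cells in neither gate had 65.1 and 96.4 CPM. Without the library as a block the difference was the same size, -0.79, and was not called (adjusted p = 0.0812). A gate of at least 2 UMIs for the positive signal gave -1.63 (adjusted p = 5.30e-07, edgeR).

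Polh had 16.2 and 18.4 CPM in dark gate cells, against 10.5 and 9.84 CPM in light gate cells. Both dark sums were above both light sums, and double-positive cells (15.5 and 15.3 CPM) lay near the dark gate. The difference was 0.75 ± 0.13 (log2, SE; adjusted p = 8.12e-06, edgeR), 0.62 in library 1 and 0.91 in library 2. With a gate of 2 UMIs it was 1.68 (adjusted p = 1.16e-05, edgeR), and on thinned sums it was 0.60 and not called (adjusted p = 0.0633). Double-positive cells were 0.57 ± 0.15 above light gate cells (adjusted p = 0.00476, edgeR).

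Ung had 38.3 and 49.7 CPM in dark gate cells, against 44.6 and 60.3 CPM in light gate cells. The gates overlapped across libraries, with the dark value the lower within each. The difference of -0.24 ± 0.07 (adjusted p = 0.0109, edgeR) was lost with cycle state as a term (-0.08, adjusted p = 0.622) and under 4 other alternatives, and it was larger with a gate of 2 UMIs (-0.79, adjusted p = 0.00415) and with gates on full counts (-0.45, adjusted p = 0.00312). Msh6 had 55.4 and 63.0 CPM in dark and 49.9 and 56.1 CPM in light gate cells, a difference of 0.16 ± 0.07 (adjusted p = 0.0599, edgeR) that was called with RLE size factors (0.17, adjusted p = 0.0482). The other 3 genes gave 22.7 and 22.7 CPM in dark against 22.3 and 23.2 CPM in light gate cells for Exo1, 14.8 and 16.1 against 14.5 and 14.4 CPM for Apex2, and 36.4 and 34.3 against 34.3 and 33.6 CPM for Pms2. Their differences were 0.02 ± 0.10, 0.09 ± 0.13 and 0.07 ± 0.08, all with adjusted p of 0.594 or more (edgeR). In all, 1 of 7 genes rose and 2 fell in the dark gate, against 13.1% and 14.9% of the 10971 genes tested (28% called).

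**Figure D3:**
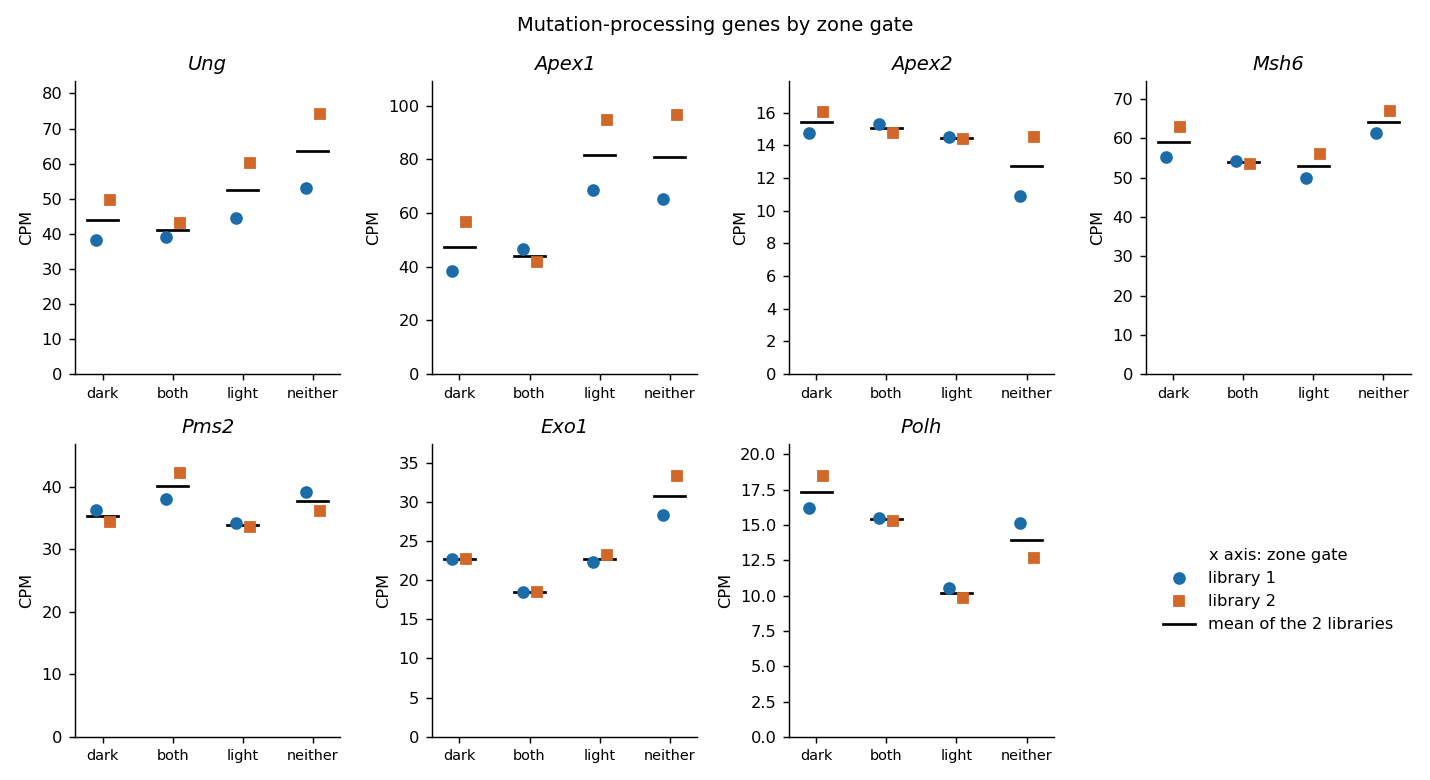
Level of each of the 7 genes (CPM, linear axis starting at 0) in the dark, double-positive (both), light and neither zone gates, with a point for each library and a bar at the mean of the 2 libraries. Apex1 is at 38.3 and 56.5 CPM in the dark and 68.5 and 94.9 CPM in the light gate, and Polh at 16.2 and 18.4 CPM in the dark and 10.5 and 9.84 CPM in the light gate.

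The gates differed in their cells as well. G2/M-high cells made up 32.4% and 33.1% of the dark gate and 16.4% and 18.2% of the light gate, and low cells 12.4% and 10.1% of the dark and 29.9% and 22.7% of the light gate. With cycle state as a term, the dark minus light difference was -0.78 ± 0.09 for Apex1 (adjusted p = 3.86e-09), 0.56 ± 0.14 for Polh (adjusted p = 0.00211) and 0.20 ± 0.07 for Msh6 (adjusted p = 0.0258), each by edgeR. At equal state 2 genes thus rose and 1 fell, against 12.2% and 13% of 9917 genes (25.2% called). The 7 naive or memory B cell markers summed to 112 and 124 CPM in the dark and 295 and 298 CPM in the light gate. Without barcodes holding UMIs of other cell types the difference was -0.77 for Apex1 (adjusted p = 6.86e-15) and 0.68 for Polh (adjusted p = 5.80e-05), by edgeR.

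Within each cycle state Apex1 was again lower in the dark gate. In low cells it had 13.5 and 36.7 CPM in the dark gate, from 8 and 12 UMIs, against 61.4 and 96.6 CPM in the light gate. In G1/S-high cells it had 56.4 and 85.9 CPM in the dark gate, against 87.5 and 121 CPM in the light gate. The difference was -1.81 ± 0.28 in low cells, -0.51 ± 0.10 in G1/S-high cells, -0.88 ± 0.16 in histone-high cells and -0.91 ± 0.13 in G2/M-high cells, called in each (largest adjusted p = 0.000215, edgeR). Of 9917 genes, 6.95%, 11.6%, 7.6% and 9.67% were called between the gates within those 4 states. The gate difference was smaller in G1/S-high than in low cells by an interaction of 1.30 ± 0.32 (adjusted p = 0.0279, edgeR), in a contrast that called 0.706% of genes. It is the only interaction of gate and state that passed the test among the 7 genes, and the contrasts for histone-high and G2/M-high against low cells called 0.252% and 0.565% of genes.

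Ung and Polh followed other courses within states. In G2/M-high cells, where Ung was lowest, it had 8.61 and 14.4 CPM in the dark gate, against 3.50 and 7.81 CPM in the light gate. The dark value was the higher in each library, by 1.01 ± 0.29 (adjusted p = 0.0164, edgeR), on 27 and 31 UMIs in the dark and 14 and 27 UMIs in the light gate. In G1/S-high cells the order was turned, with 83.4 and 102 CPM in the dark against 101 and 125 CPM in the light gate, a difference that did not pass the test (-0.23 ± 0.10, adjusted p = 0.118). The interaction of gate and G2/M-high against low cells was 1.78 ± 0.48 for Ung and did not pass (adjusted p = 0.0763, edgeR). Polh was higher in the dark gate in every state and library. Its sums in low cells held only 6 and 3 UMIs in the dark and 15 and 5 UMIs in the light gate. Among G1/S-high cells it had 8.28 and 14.6 CPM in the dark against 5.65 and 7.03 CPM in the light gate. That state alone passed the test for Polh (0.83 ± 0.27, adjusted p = 0.0339, edgeR), and no interaction did.

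**Figure D4:**
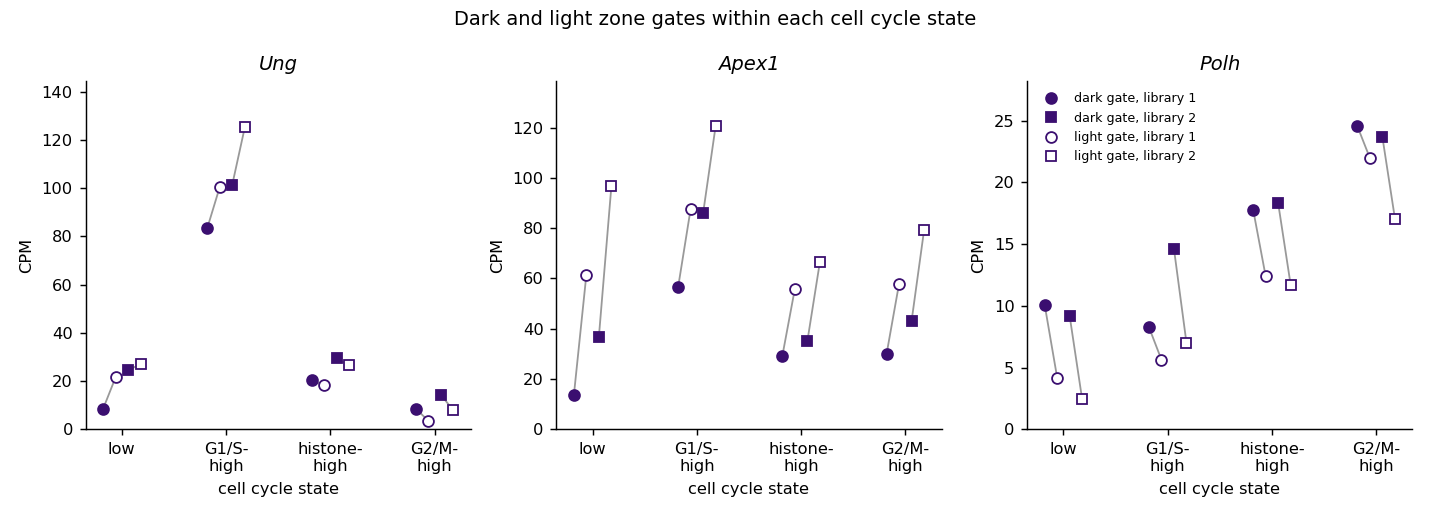
Levels (CPM) of Ung, Apex1 and Polh in dark (filled) and light (open) zone gate cells of each cycle state, with circles for library 1, squares for library 2 and a line joining the gates of the same library. Apex1 is lower in the dark gate in all 8 pairs, and Ung is higher in the dark gate among G2/M-high cells, at 8.61 and 14.4 CPM against 3.50 and 7.81 CPM.

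Between the gates the counts over the repair lists stand beside 13.1% of all genes rising and 14.9% falling, again with no test of the lists themselves. Of 21 base excision genes 5 rose and 2 fell in the dark gate (median log2 fold change -0.03, beside -0.00 over all genes): Neil1 (0.68 ± 0.05), a glycosylase of oxidized bases, and Xrcc1 (0.46 ± 0.05), a scaffold of single-strand break repair, rose beside the fall of Apex1. Of 22 mismatch repair genes 7 rose and 1 fell (median 0.11), with Msh3 (0.45 ± 0.06), whose product takes the place of MSH6 in the other mismatch-binding dimer, and Rfc1 (0.33 ± 0.04), the large clamp loader subunit, among the largest. Of 19 translesion genes 3 rose and 2 fell (median 0.08), and the largest changes were those of Polh, Poli (0.59 ± 0.11), another translesion polymerase, and Rev3l (0.30 ± 0.06), the catalytic subunit of polymerase zeta. Of 18 genes of AID and its cofactors 4 rose and 2 fell (median 0.06), with Rpa1 higher (0.23 ± 0.05) and Exosc3 lower (-0.17 ± 0.06). All named differences passed the edgeR test.

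The isotype classes compared switched with unswitched cells, and Polh was the only gene of the 7 called with the settings used throughout. A cell was classed when 5 or more UMIs of heavy chain constant genes were present, as IgG when 80% or more of them came from Ighg genes and as IgM when that share came from Ighm and Ighd. The classes held 1664 and 1073 IgG cells and 1545 and 1151 IgM cells. Polh had 16.0 and 16.1 CPM in IgG cells, against 12.2 and 11.1 CPM in IgM cells, with no overlap between the classes. The difference was 0.43 ± 0.10 (log2, SE; adjusted p = 0.00378, edgeR) and 0.39 ± 0.10 with cycle state as a term (adjusted p = 0.00299, where 20.8% of genes were called). It was not called with DESeq2 (0.44, adjusted p = 0.408), without the library block (0.43, adjusted p = 0.309), at a mitochondrial limit of 10% (0.27, adjusted p = 0.404) or at a 95% isotype share (0.21, adjusted p = 0.300). In this contrast 6.35% of 11064 genes rose and 9.46% fell (15.8% called). The 7 naive or memory B cell markers summed to 159 and 162 CPM in IgG cells, against 230 and 246 CPM in IgM cells, and their part in the difference was not tested.

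Ung had 37.3 and 55.1 CPM in IgG cells, against 44.5 and 56.9 CPM in IgM cells, a difference of -0.18 ± 0.06 that did not pass (adjusted p = 0.0622, edgeR). It was called under 3 alternatives, with the lowest adjusted p at a mitochondrial limit of 40% (-0.27, adjusted p = 0.000543). The other 5 genes differed by -0.12 to 0.07 on the log2 scale (lowest adjusted p = 0.156). At the 40% limit Apex1 (-0.30, adjusted p = 0.000147) and Pms2 (0.16, adjusted p = 0.0314) were also called, as was Apex1 on thinned sums (-0.35, adjusted p = 0.0273), all by edgeR. Among IgG subclasses, IgG1 cells (1337 and 856) gave Polh at 16.2 and 16.3 CPM, 0.44 ± 0.11 above IgM cells (adjusted p = 0.00317, edgeR), and Ung at 35.8 and 48.8 CPM, 0.29 ± 0.08 below IgM cells (adjusted p = 0.00957); 16.1% of 10750 genes were called. IgG2b cells (142 and 116) had Ung at 42.0 and 101 CPM, against 35.8 and 48.8 CPM in IgG1 cells. The log2 difference was 0.75 ± 0.14 (adjusted p = 0.00195, edgeR; 1.09% of genes called), at 0.23 in library 1 and 1.05 in library 2, where the IgG2b sums held 68 and 150 UMIs. That contrast was not among the planned subclass comparisons, which were each made with IgM cells. Against IgM cells, Ung in IgG2b cells differed by 0.46 ± 0.14 and did not pass (adjusted p = 0.102, edgeR). The log2 difference there was -0.08 in library 1 and 0.83 in library 2. IgG3 cells were few (24 and 18) and were not tested, with Polh at 18.0 and 19.1 CPM from 6 and 4 UMIs. The gate difference was also read within isotypes: Apex1 was 0.46 ± 0.11 lower in the dark gate in IgG cells and 0.89 ± 0.11 lower in IgM cells, and Polh 0.73 ± 0.21 and 0.98 ± 0.22 higher, all called by edgeR, where 12.5% and 12.4% of 9761 genes were. No gene had an interaction of gate and isotype that passed the edgeR test, with 0% of 9761 called and 551 at an unadjusted p under 0.05.

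**Figure D5:**
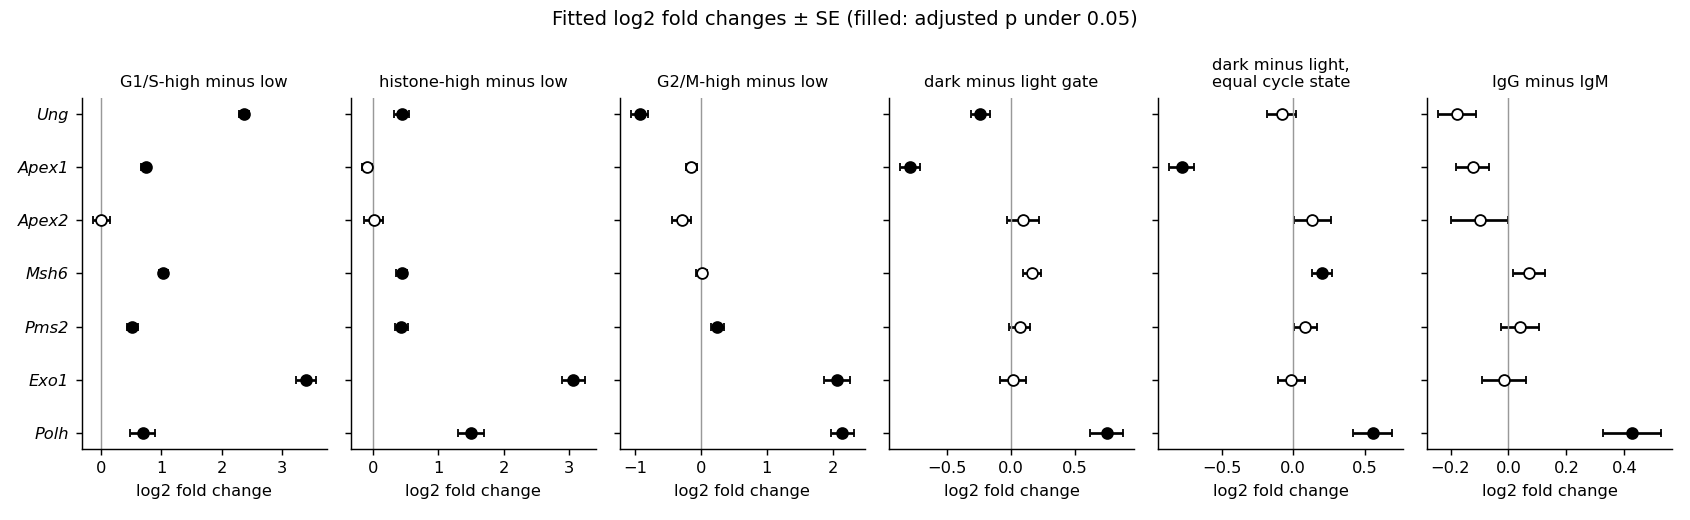
Fitted log2 fold changes of the 7 genes with their standard errors in 6 comparisons, filled where the adjusted p of edgeR's quasi-likelihood test was under 0.05 (2 libraries). Polh lies at 2.15 in G2/M-high minus low, 0.75 in dark minus light and 0.43 in IgG minus IgM, and Apex1 lies at -0.79 in dark minus light and -0.78 at equal cycle state.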

How the data were processed

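The deposited matrices hold whole-number counts of UMIs per gene and barcode, not normalized, per the file headers written by Cell Ranger 3.0.2. They were made against mm10, per the submitters' processing notes. The annotation used, strand handling and cell calling are not given in the sources used here. Barcodes were filtered, thinned and classed as stated with each comparison, using Python 3.11.15, numpy 2.4.6, pandas 2.3.3 and scanpy 1.11.5. Thinning to 3400 UMIs, the 10th percentile of depth, left out 465 and 391 barcodes. The full counts of each class were summed per library and tested with edgeR 4.0.16 (TMM, filterByExpr, quasi-likelihood, library as a block). P-values were Benjamini-Hochberg adjusted over all genes tested, with a threshold of 0.05, and the standard error is the log2 fold change over the root of F. The gate and state fits left 3 residual degrees of freedom and the isotype fit 2, so each gene's variance also drew on the other genes. In the fits with cycle state as a term, the states of a library also served as repeats. Their residual thus holds variation between states as well as between libraries. The test was checked on simulated data, where all genes had the same dispersion and 100 genes were changed by each size. The real contrasts called far more genes, so the recovery rates need not hold for them. Of changes of 0.5 (log2) the test recovered 28% in dark minus light, 16.3% in G2/M-high minus low and 23.2% in IgG minus IgM. Of changes of 1 (log2) it recovered 76.8%, 71.1% and 89.9% in the same contrasts. A difference of 0.5 or less that did not pass may thus still be present. Classes of a library share its cells and reagents, so the library pairs them by construction. DESeq2 1.42.0 and other alternatives were also run.

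The 7 genes and the lists (cell cycle, repair and cell type markers) were chosen with earlier results of these data known. From each repair list the called genes with the 3 largest changes are named, and for likeness the 3 genes of highest r. Some genes of the lists enter the counts and are not reported here by name. CPM of 3′ tags is compared between classes, not between genes.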

Additional observations from a re-analysis of the deposited data

Results flagged for a closer look

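The dark minus light difference of Apex1 differed between cycle states by a test of the difference itself. The interaction of gate with G1/S-high against low cells was 1.30 ± 0.32 on the log2 scale (SE, 2 libraries; adjusted p = 0.0279, edgeR), with the gate difference at -0.51 in G1/S-high and -1.81 in low cells. The low dark gate sums rested on 8 UMIs in library 1 and 12 in library 2. The per-library gate differences were -0.63 and -0.49 in G1/S-high cells and -2.19 and -1.40 in low cells, so the direction of the interaction held in both libraries. The interaction was not rerun under the processing alternatives.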

How the results depend on the processing

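The alternatives were run for dark minus light, each cycling state minus low, and IgG minus IgM. All other contrasts were not rerun, among them those with the double-positive gate, between cycling states, within states or isotypes, of subclasses, and the interactions. Of 434 tests of the 7 genes under the alternatives, 361 kept their direction and call, 17 gained and 26 lost a call, and 30 changed sign. With 1 library left out no test is possible. The counts of called genes moved by over 1.5 times as follows. Dark minus light called 3071 genes, but 1478 with DESeq2, 2047 at a mitochondrial limit of 10%, 622 without the replicate block and 1427 on thinned sums. G1/S-high minus low called 6293, but 3785 at the 10% limit and 4097 on thinned sums. Histone-high minus low called 4848, but 2737 without the block and 3009 on thinned sums. G2/M-high minus low called 5562, but 3536 at the 10% limit, 3451 without the block and 3670 on thinned sums. IgG minus IgM called 1750, but 370 with DESeq2, 657 at the 10% limit, 3518 at the 40% limit, 120 without the block and 1058 on thinned sums. Fewer UMIs enter the thinned sums, and for the other changes the cause was not tested. Without the block, the differences of Ung and Apex1 between the gates (adjusted p = 0.532 and 0.0812), of Ung in histone-high cells (0.206), of Pms2 in G2/M-high cells (0.114) and of Polh between isotypes (0.309) lost their call. No other call of the 7 genes changed in the contrasts that were rerun.

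The sign changes were of values that were not called, except for Ung in histone-high minus low cells (-0.25 at the 40% limit). In dark minus light, Exo1 gave -0.0011 at the 10% and -0.0096 at the 40% limit, -0.010 without other cell types, -0.18 on thinned sums, -0.020 with another draw, -0.072 with gates on full counts and -0.015 with cycle state as a term. In the same contrast Apex2 gave -0.036 with gates on full counts and Pms2 -0.071 on thinned sums. In G1/S-high minus low, Apex2 gave -0.00039 without immunoglobulin genes, -0.087 at the 40% limit, -0.15 on thinned sums and -0.011 with scanpy phases, and in histone-high minus low -0.074 on thinned sums. In G2/M-high minus low, Msh6 gave -0.044 at the 10% limit, -0.10 without other cell types and -0.021 on thinned sums. In IgG minus IgM, Exo1 gave 0.11 at the 10% limit, 0.032 without the highest 6% of doublet scores, 0.018 on thinned sums, 0.032 with another draw, 0.00034 with cycle state as a term and 0.038 at a 95% share. There Apex2 gave 0.024 on thinned sums, Pms2 -0.097 at the 10% limit and -0.0033 at a 95% share, Apex1 0.16 at the 10% limit and 0.038 at a 95% share, and Msh6 -0.0059 without other cell types.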
